A study of Mus musculus with 6 samples.

Results

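The microRNAs miR-15a, miR-15b, miR-16, miR-195, miR-322 and miR-497 form a family because they share a seed, the stretch near the 5′ end that pairs with target mRNAs. All 6 (listed on the card as mmu-miR-15a, mmu-miR-15b, mmu-miR-16, mmu-miR-195, mmu-miR-322 and mmu-miR-497) have an assay on the TaqMan microRNA card that was run on dentate gyrus RNA, out of 381 assays on the card, of which 375 read microRNAs. The rule that picks them uses their names and no measured value, although the family was singled out with earlier results of these data known. In addition, the card holds 0 further assays for another arm or a rat form of a member. The libraries came from the microdissected right dentate gyrus of male C57/Black6J mice aged 6 to 8 weeks, with no transgene or mutant allele named in the labels. In 3 mice, repeated intraperitoneal injections of low-dose kainic acid, an agonist of glutamate receptors, had induced status epilepticus (KA-SE), and the KA-SE group holds only mice in which severe seizures lasted for several minutes. The other 3 mice had received saline. Tissue was taken 72 h after the injections in both groups, and each library is 1 mouse. Each assay yields a Ct (threshold cycle), the point in the PCR where fluorescence passes a fixed level, so a lower Ct stands for more RNA and 1 cycle for a factor of 2 where the product doubles at each cycle.

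A microRNA guides the silencing complex to mRNAs whose 3′ ends match its seed, and members of a seed family can therefore repress overlapping sets of mRNAs. The miR-15/16 family is best known for repressing Bcl2, a protein that holds back apoptosis, and cyclins, cyclin-dependent kinases and Cdc25 phosphatases that drive cells through G1. In human chronic lymphocytic leukaemia the locus of miR-15a and miR-16 is often lost. In the dentate gyrus, newborn cells divide and many of them die by apoptosis, and both processes are altered by seizures.

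The mature sequences, taken from RefSeq for the build GRCm38.p6, are shown because the members are defined by them. Capitals mark the seed, bases 2 to 8, which reads the same in all 6.
miR-15a: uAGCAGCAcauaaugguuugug
miR-15b: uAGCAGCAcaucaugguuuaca
miR-16: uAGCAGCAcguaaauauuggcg
miR-195: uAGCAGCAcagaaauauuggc
miR-497: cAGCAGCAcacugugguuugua
miR-322: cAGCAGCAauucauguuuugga
RefSeq lists 10 mature mouse microRNAs with this seed out of 1679 (0.596%). The 6 members are among them, and the other 4, miR-195b, miR-6342, miR-6353 and miR-6419, were not analysed here. Beyond the seed the members diverge to different degrees. Compared base by base without gaps, miR-16 and miR-195 were the closest pair, with 19 of 21 positions identical, followed by miR-15a and miR-15b with 18 of 22. The most distant pair was miR-16 and miR-497, with 11 of 22 positions identical. Whether an assay also reads a close relative of its target was not tested.

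The 6 members come from 7 loci that sit in short clusters. Mature miR-15a (chr14:61632075-61632096, minus strand) lies beside a copy of miR-16 (chr14:61631936-61631957, minus strand) inside the long noncoding RNA gene Dleu2, with 54 bases between their precursors. Mature miR-15b (chr3:69009775-69009796, plus strand) lies beside the other copy of miR-16 (chr3:69009918-69009939, plus strand) inside Smc4, a gene for a condensin subunit, with 66 bases between the precursors. The 2 copies give the same mature miR-16, so the miR-16 assay reads their sum. On chromosome 11, miR-497 (chr11:70234730-70234751, plus strand) and miR-195 (chr11:70235062-70235082, plus strand) have 241 bases between their precursors. On the X chromosome miR-322 (chrX:53054306-53054327, minus strand), the mouse counterpart of human miR-424, lies beside miR-503, inside a long noncoding RNA gene, with 200 bases between their precursors. Exons and introns of the host genes were not examined.

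Across the card, the small nuclear RNA U6 served as the reference, and its Ct was 13.2 ± 0.41 in KA-SE and 13.4 ± 0.49 in saline mice (SD, n = 3 each; exact permutation, two-sided p = 0.7, and no p below 0.1 can arise from 3 against 3). A Ct below 35 was reached by 317 to 326 assays in KA-SE libraries and by 303 to 324 assays in saline libraries, and 281 microRNAs reached it in all 6 libraries and were tested. Saline replicate 2 differed from the other 5 libraries. Its microRNAs came later than the mean of saline replicates 1 and 3 by a median of 2.23 cycles (276 of 281 were later), while U6 came later by 0.73 cycles. Results are therefore given with and without this library. In limma over U6, 0 of 281 microRNAs (0%) met both limits of a call, 0.05 for the adjusted p and 1.5 for the fold change, while 8 (2.85%) had an unadjusted p under 0.05 and the methods' t-test gave 6. The tissue label was set beside microRNAs of neurons, which cannot tell the dentate gyrus from other brain regions. miR-124, miR-9, miR-128a and miR-218 were detected in every library, with Ct values of 13.97 to 19.4 in KA-SE mice and of 14.5 to 23.0 in saline mice.

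All 6 family members were readily detected in every library. miR-16 had the lowest Ct, at 17.7 ± 0.34 in KA-SE and 18.3 ± 1.3 in saline mice (SD, n = 3 each), and by mean Ct it ranked 24th of the 281 microRNAs tested. miR-195 followed at 19.3 ± 0.33 in KA-SE and 20.3 ± 1.3 in saline mice, and miR-15a at 21.5 ± 0.55 in KA-SE and 22.6 ± 2.1 in saline mice. The other members came later. miR-497 had a Ct of 22.9 ± 0.30 in KA-SE and 24.1 ± 1.7 in saline mice, miR-15b of 23.4 ± 0.38 in KA-SE and 24.2 ± 0.66 in saline mice, and miR-322, the last, of 24.6 ± 0.59 in KA-SE and 26.2 ± 2.4 in saline mice (SD, n = 3 each). Assays differ in efficiency, so this is an order of Ct rather than of abundance. Each neighbouring pair kept this order in all 6 libraries, apart from miR-497 and miR-15b, which were in the reverse order in saline replicate 2 and were 0.30 ± 0.66 cycles apart on average (SD, n = 6).

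Relative to U6, every member had a higher mean level in KA-SE than in saline mice, but no member passed the test, and the differences of 5 members, all but miR-15b, moved by more than 1.5 times when saline replicate 2 was left out. In limma with all 6 libraries 0 of the 6 members were called and 0 had an unadjusted p under 0.05. A positive log2 fold change was found for 6 of 6 members, where 87.2% of all tested microRNAs were positive. The median log2 fold change was 0.84 for the members and 0.62 for all tested microRNAs. Without saline replicate 2 the member median was 0.28, with 4 of 6 positive, and that of all microRNAs 0.12, with 62.6% positive. With 2 other small RNAs of the card as the reference, snoRNA135 and snoRNA202, 6 of 6 members and 82.2% of all microRNAs were positive. Relative to the global mean of the tested microRNAs, which removes the overall delay of that library, the member median was 0.19 with 4 of 6 positive, and 45.9% of all microRNAs were positive. Neither fit called a microRNA, and nor did that over the snoRNAs. An unadjusted p under 0.05 was reached by 8.54% of all microRNAs without saline replicate 2, by 8.9% relative to the global mean and by 1.07% over the snoRNAs, and by 0 members in each of these 3 fits. The controls U87 and Y1 of the card were not used as references. Their raw Ct, KA-SE minus saline, was -0.37 and -0.91 cycles (exact permutation, two-sided p = 0.6 and 0.1). Less that of U6 it was -0.21 and -0.745 cycles, so Y1 too was higher in KA-SE relative to U6. Fold changes over Y1 were not computed.

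**Figure D1:**
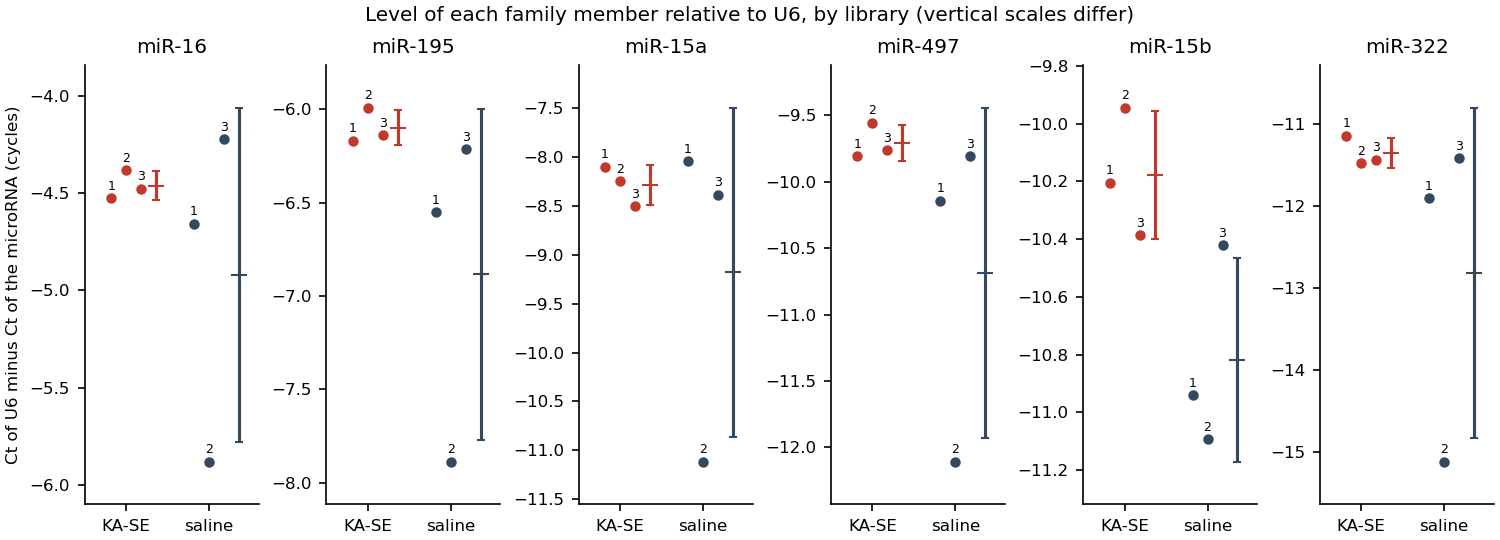
Level of each family member relative to U6 (Ct of U6 minus Ct of the microRNA, in cycles) in the 3 KA-SE and 3 saline libraries; numbers are replicate numbers, and the horizontal mark with its bar is the mean ± SD. Saline replicate 2 is the lowest point in every panel, and the groups do not overlap for miR-195 and miR-15b.

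Of the pair on chromosome 14, neither miR-15a nor miR-16 separated the groups. The level of mmu-miR-16, which represses Bcl2 and cyclin D1 mRNAs, was -4.53, -4.38 and -4.48 in KA-SE replicates 1, 2 and 3, against -4.66, -5.88 and -4.22 in saline replicates 1, 2 and 3. The KA-SE values lay between those of saline replicates 1 and 3, with saline replicate 2 below them all. Over U6 the log2 fold change was 0.46 (standard error 0.53, 95% interval -0.78 to 1.70, limma with Benjamini-Hochberg adjustment, adjusted p = 0.646), and without saline replicate 2 it was -0.02 (95% interval -0.56 to 0.52). The level of mmu-miR-15a was -8.10, -8.25 and -8.51 in KA-SE mice, against -8.05, -11.12 and -8.39 in saline mice. Saline replicate 1 was thus the highest library and saline replicate 2 the lowest, by 2.61 cycles from the next. For miR-15a the log2 fold change was 0.90 (standard error 0.82, 95% interval -1.02 to 2.81, limma adjusted p = 0.612), and without saline replicate 2 it was -0.07 (95% interval -0.64 to 0.50). The direction for both members therefore depended on that library.

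miR-15b, the partner of the second miR-16 copy and a repressor of Bcl2 and cyclin E1, had the smallest contribution from saline replicate 2. Its level was -10.21, -9.95 and -10.39 in KA-SE mice, against -10.94, -11.09 and -10.42 in saline mice. All KA-SE libraries lay above the saline libraries, although KA-SE replicate 3 and saline replicate 3 were only 0.034 cycles apart. Such a separation in this direction was found for 54 of 281 microRNAs (19.2%), and the opposite one for 4 (1.42%). Among the 6 members 2 showed the first, miR-15b and miR-195, and 0 the opposite. The same 2 members were apart without saline replicate 2, where 19.6% of all microRNAs were higher and 8.9% lower in KA-SE with no overlap. Over the snoRNAs only miR-15b was apart (14.6% of all higher, 2.85% lower), and relative to the global mean no member was (12.8% higher, 12.1% lower). For miR-15b the log2 fold change was 0.64 (standard error 0.42, 95% interval -0.35 to 1.62, limma adjusted p = 0.556). Without saline replicate 2 it was 0.50 (95% interval -0.14 to 1.14, limma adjusted p = 0.517), the highest of the 6 members in that fit. Relative to the global mean with all libraries it was -0.02 (95% interval -0.98 to 0.95), since miR-15b was delayed in saline replicate 2 less than most microRNAs.

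The pair on chromosome 11 kept a nearly constant distance in 5 of the 6 libraries. miR-195, which restrains cell cycle genes in the heart of newborn mice, had levels of -6.17, -5.99 and -6.14 in KA-SE mice, against -6.55, -7.89 and -6.21 in saline mice. The groups did not overlap, with 0.045 cycles between KA-SE replicate 1 and saline replicate 3. This gave miR-195 a log2 fold change of 0.79 (standard error 0.54, 95% interval -0.48 to 2.05, limma adjusted p = 0.556), and it was 0.28 (95% interval -0.23 to 0.80) without saline replicate 2. Its cluster partner miR-497 had levels of -9.81, -9.55 and -9.76 in KA-SE mice, against -10.14, -12.11 and -9.81 in saline mice. KA-SE replicate 1 lay 0.002 cycles below saline replicate 3, so the groups overlapped by that much. The log2 fold change of miR-497 was 0.98 (standard error 0.66, 95% interval -0.56 to 2.52, limma adjusted p = 0.556), and 0.27 (95% interval -0.27 to 0.80) without saline replicate 2.

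miR-322, known for slowing the cell cycle during muscle differentiation, had the largest log2 fold change of the members and ranked 38th of 281. Its level was -11.15, -11.48 and -11.44 in KA-SE mice, against -11.91, -15.12 and -11.42 in saline mice. Saline replicate 3 lay among the KA-SE libraries and saline replicate 2 lay 3.21 cycles below the next library. The log2 fold change was 1.46 (standard error 0.94, 95% interval -0.75 to 3.67, limma adjusted p = 0.556). Without saline replicate 2 it was 0.31 (95% interval -0.30 to 0.91, limma adjusted p = 0.646), and relative to the global mean with all libraries 0.80 (95% interval -0.44 to 2.05, limma adjusted p = 0.528).

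**Figure D2:**
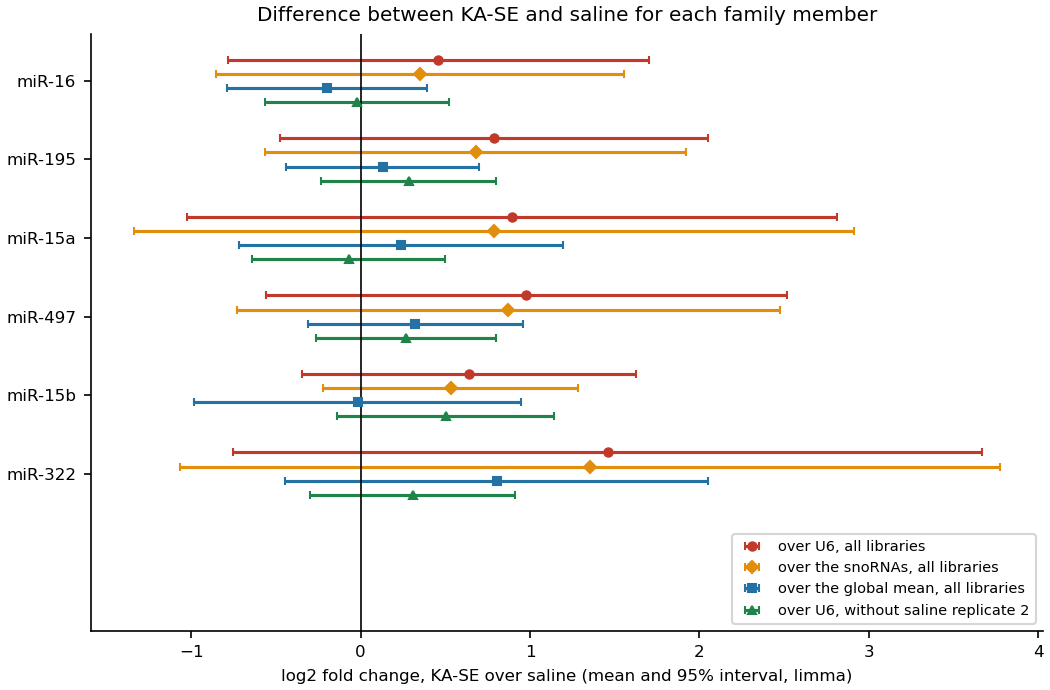
Log2 fold change of each member, KA-SE over saline, with its 95% interval from limma, under 3 references with all libraries and over U6 without saline replicate 2. Every interval shown includes 0, and the intervals over U6 are narrower without saline replicate 2.

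The members were delayed unequally in saline replicate 2. Against the mean of saline replicates 1 and 3, miR-15b came 1.14 cycles later in this library, miR-16 2.17, miR-195 2.23, miR-497 2.86, miR-15a 3.63 and miR-322 4.18 cycles later. U6 was delayed by 0.73 cycles, and the quartiles over the 281 microRNAs were 1.53 and 3.19 cycles. miR-16 and miR-195 were thus delayed by nearly the same amount and close to the median microRNA. miR-15a and miR-322 lay beyond the upper quartile and miR-15b below the lower. The Ct values of saline replicate 2 also gathered just under whole cycles. Of its 281 Ct values 46.6% had a fractional part of 0.9 or more, against 15.3% to 19.6% in the KA-SE libraries and 19.6% and 23.5% in saline replicates 1 and 3. Among the members this held for miR-15a (24.992), miR-15b (24.970), miR-322 (28.995) and miR-497 (25.986), and not for miR-16 (19.757) and miR-195 (21.765). In KA-SE replicate 1 it held for 3 of 6 members (miR-15b, miR-195 and miR-322), in KA-SE replicates 2 and 3 for 1 and 0, and in saline replicates 1 and 3 for 1 and 0. The part of this feature in the delays was not tested.

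**Figure D3:**
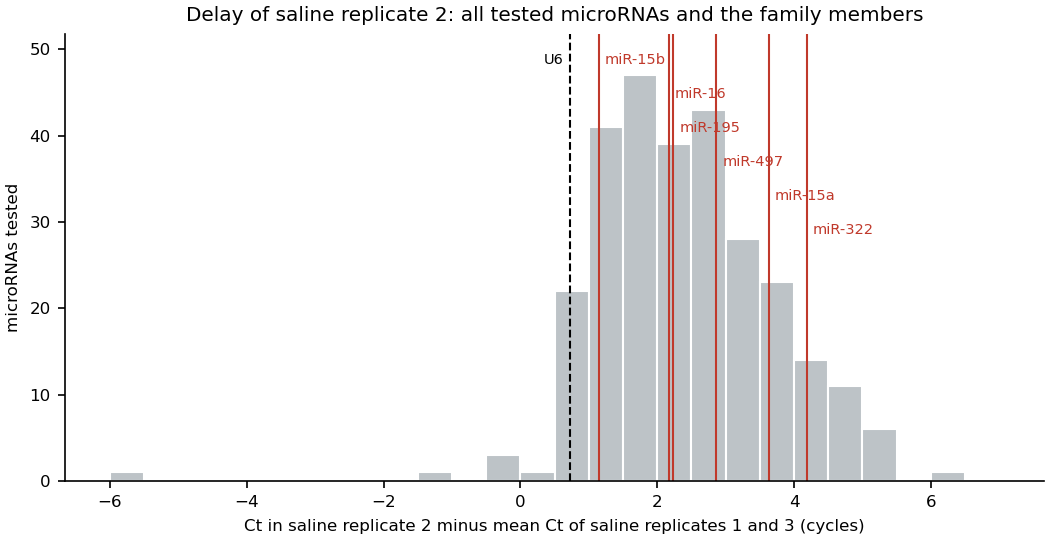
Histogram of the delay of saline replicate 2 against the mean of saline replicates 1 and 3 over the 281 microRNAs tested (x axis in cycles, y axis the number of microRNAs). Red lines mark the family members, which spread between 1.14 and 4.18 cycles, and the dashed line marks U6 at 0.73 cycles.

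A gap between the Ct values of 2 members in the same library needs no reference RNA, and 15 such gaps were compared between the groups. The gap from miR-16 to miR-195 was the steadiest, with an SD of 0.18 cycles over all 6 libraries, where the other gaps had SDs of up to 1.22 cycles. miR-195 came 1.64, 1.61 and 1.66 cycles after miR-16 in KA-SE mice, against 1.90, 2.01 and 1.99 cycles in saline mice. Each KA-SE mouse therefore had a shorter gap, that is more miR-195 per miR-16, than each saline mouse, and saline replicate 2 lay within 0.02 cycles of saline replicate 3. The gap averaged 1.64 ± 0.02 cycles in KA-SE and 1.96 ± 0.06 cycles in saline mice (SD, n = 3 each), which differ by -0.33 cycles (exact permutation, two-sided p = 0.1, the smallest possible, adjusted p = 0.5 over 15 gaps). Without saline replicate 2 the difference was -0.30 cycles. In the authors' deposited normalized table the gap was 1.82, 1.76 and 1.85 cycles in KA-SE mice, against 1.90, 2.20 and 1.99 cycles in saline mice, which also do not overlap.

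The gaps from miR-16 to miR-497 and to miR-322 separated the groups as well. miR-497 came 5.28, 5.17 and 5.28 cycles after miR-16 in KA-SE mice, against 5.49, 6.23 and 5.58 cycles in saline mice, a difference of -0.52 cycles, or -0.29 without saline replicate 2. miR-322 came 6.62, 7.10 and 6.96 cycles after miR-16 in KA-SE mice, against 7.25, 9.24 and 7.19 cycles in saline mice, a difference of -1.001 cycles, or -0.33 without saline replicate 2 (exact permutation p = 0.1 and adjusted p = 0.5 for both gaps with all 6 libraries). In the authors' normalized table the groups overlapped for both gaps. The gaps from miR-16 to its cluster partners overlapped between groups. miR-15a came 3.58, 3.87 and 4.03 cycles after miR-16 in KA-SE mice, against 3.39, 5.24 and 4.16 cycles in saline mice, and miR-15b came 5.68, 5.56 and 5.91 cycles after it in KA-SE mice, against 6.28, 5.21 and 6.20 cycles in saline mice. For miR-15b the groups did not overlap without saline replicate 2, with a difference of -0.52 cycles. The share of all gaps that separate without that library was not computed. In the authors' normalized table the miR-15b gap was 5.55, 5.47 and 5.84 cycles in KA-SE mice. It was 5.74 and 5.65 cycles in saline replicates 1 and 3, which overlap with the KA-SE values.

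In all, 3 of 15 gaps (20%) separated the groups, each involving miR-16, where 23.9% of the gaps between any pair of the 281 microRNAs did so. Of the 280 other microRNAs set against miR-16, 54 (19.3%) came sooner after miR-16, or further before it, in all KA-SE mice than in all saline mice, and 23 (8.21%) the reverse. The gap between the cluster partners miR-195 and miR-497 was 3.64, 3.56 and 3.62 cycles in KA-SE mice, against 3.59, 4.22 and 3.59 cycles in saline mice. Apart from saline replicate 2 these 5 values spanned 3.56 to 3.64 cycles, and the groups overlapped (difference -0.19 cycles, exact permutation p = 0.8, or 0.02 cycles without saline replicate 2).

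**Figure D4:**
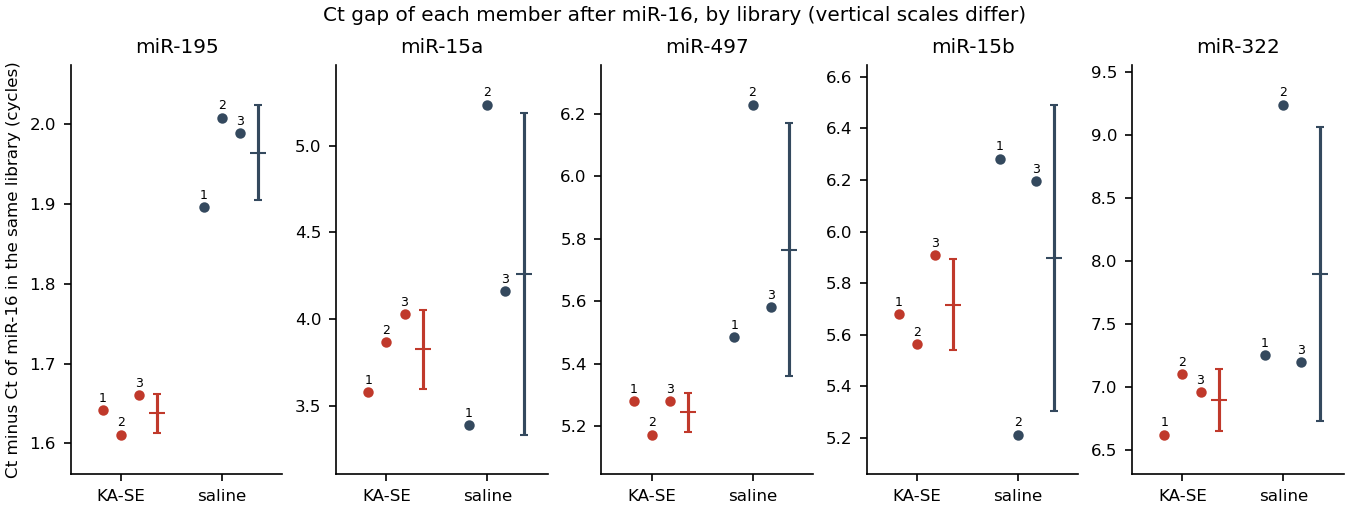
Ct of each member minus the Ct of miR-16 in the same library (cycles), for 3 KA-SE and 3 saline libraries, with replicate numbers and the mean ± SD. The gap to miR-195 is 1.61 to 1.66 cycles in KA-SE and 1.90 to 2.01 cycles in saline mice, and the gaps to miR-15a and miR-15b overlap between the groups.

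The partners of miR-322 in its X-linked cluster were less well detected. miR-503, which shares targets such as Cdc25a with miR-322, carries a seed close to that of the family, shown in capitals (bases 2 to 8).
miR-503: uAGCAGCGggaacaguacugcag
miR-503 had a Ct of 25.2, 27.3 and 27.1 in KA-SE mice, against 26.6, 40 (no amplification) and 29.0 in saline mice. miR-351 had a Ct of 23.7, 25.5 and 25.1 in KA-SE mice, against 26.0, 40 and 26.1 in saline mice. Both were missed by saline replicate 2 and so were not tested. In the remaining libraries the level of miR-351 relative to U6 was -10.92, -11.94 and -11.74 in KA-SE mice, against -13.11 and -12.72 in saline replicates 1 and 3, a difference of 1.38 with no overlap, and for miR-503 it was 1.30 with overlapping groups. Without saline replicate 2, 19.6% of all microRNAs tested were higher and 8.9% lower in KA-SE with no overlap. The rat assay for miR-351, picked out after its values were seen, did amplify in saline replicate 2. Its Ct was 27.5, 28.5 and 27.8 in KA-SE mice, against 28.6, 30.0 and 28.6 in saline mice. Over U6 its groups did not overlap, with KA-SE higher, as for 19.2% of all microRNAs tested. Without saline replicate 2 its difference over U6 was 0.73, against 1.38 for the mouse assay. The rat assay for miR-450a also amplified in all 6 libraries, with a Ct of 29.0, 29.8 and 31.1 in KA-SE mice, against 29.3, 34.997 and 33.0 in saline mice, and its groups overlapped. Of the mouse assays of the cluster that could be tested, 0 of 3 were called. Both rat assays also stayed under Ct 35 in every library, and neither was among the microRNAs called (0 of 281). The log2 fold change over U6 was 1.69 for miR-542-3p, 0.49 for miR-542-5p and 0.55 for miR-450a-5p (limma adjusted p = 0.556, 0.644 and 0.671), or 0.43, 0.05 and -0.13 without saline replicate 2. miR-450b-5p amplified in 1 library, KA-SE replicate 1.

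miR-103 and miR-107, which lie in genes for pantothenate kinases and are known for roles in metabolism, hold the same 7 bases as the family seed, shifted by a base to positions 1 to 7 (capitals).
miR-103: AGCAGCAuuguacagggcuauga
miR-107: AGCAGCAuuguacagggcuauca
Their values lay below those of the family. miR-103 had a Ct of 20.2, 20.9 and 21.0 in KA-SE mice, against 20.2, 22.4 and 20.4 in saline mice, and over U6 its log2 fold change was 0.11 (limma adjusted p = 0.903). miR-107 had a Ct of 23.7, 24.5 and 24.8 in KA-SE mice, against 24.2, 25.9 and 24.0 in saline mice, with a log2 fold change of 0.18 (limma adjusted p = 0.827). Without saline replicate 2 these were -0.35 and -0.19, and relative to the global mean -0.55 and -0.47. Whether the difference from the seed family exceeds the spread between mice was not tested.

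Other microRNAs with known targets among apoptosis and G1 genes were taken as a list beside the family, and the difference between list and family was not tested. Of 27 listed, 26 were on the card and all 26 were tested, with 0 called higher and 0 called lower. Over U6, 24 of 26 were positive, with a median log2 fold change of 0.74, against 0.84 for the family and 0.62 for all microRNAs, and without saline replicate 2 the medians were 0.16, 0.28 and 0.12. Over U6 with all libraries the highest were miR-29b, a repressor of Mcl1 and of proapoptotic BH3-only genes, with 1.94, and miR-153, a neuronal repressor of Bcl2 in human cells, with 1.89 (limma adjusted p = 0.556 for both), or 0.38 for miR-29b and 0.52 for miR-153 without saline replicate 2. That order depended on saline replicate 2. Without it the highest were miR-21, a microRNA induced in reactive glia, with 0.80 (95% interval 0.26 to 1.34, limma unadjusted p = 0.0111, adjusted p = 0.389), and miR-106b, a partner of miR-93 and miR-25, with 0.58 (limma adjusted p = 0.509). Relative to the global mean with all libraries miR-21 was at 1.14 (limma unadjusted p = 0.0328, adjusted p = 0.467). Over U6 the groups did not overlap, with KA-SE higher, for 6 of the 26, miR-21 and miR-106b among them. Of all microRNAs tested 19.2% separated in this way. Over U6 with all libraries the lowest were miR-204, abundant in the choroid plexus, with -0.26 (limma adjusted p = 0.760), and miR-125b-5p, which targets p53 in human cells, with -0.06 (limma adjusted p = 0.930). Without saline replicate 2 the lowest were miR-204 with -0.58 (95% interval -1.12 to -0.05, limma unadjusted p = 0.0368, adjusted p = 0.509) and miR-222 with -0.28, and miR-125b-5p was at -0.18. Relative to the global mean with all libraries miR-204 was at -0.91 (limma unadjusted p = 0.0248, adjusted p = 0.464).

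Since miR-16 is abundant in blood cells, markers of other cells are given beside the members. In bulk tissue, fewer cells of a type cannot be told apart from less RNA per cell. The summed level of each list relative to U6 is given on a log2 scale. For red blood cells (miR-451 and miR-486, with miR-486 below Ct 35 in 3 libraries) it was -11.6 to -11.0 in KA-SE and -13.4 to -11.2 in saline mice, and miR-451 had a log2 fold change of 0.70, or 0.0052 without saline replicate 2. For 4 leukocyte microRNAs it was -4.58 to -4.32 in KA-SE and -4.63 to -4.09 in saline mice, and their log2 fold changes ran from -0.06 for miR-150 to 2.02 for miR-142-3p. Without saline replicate 2 these leukocyte microRNAs went in both directions, with 0.85 for miR-142-3p, 0.60 for miR-142-5p, -0.14 for miR-150 and -0.40 for miR-223. For 4 microRNAs of endothelium and vessel wall it was -2.91 to -2.73 in KA-SE and -4.02 to -2.65 in saline mice, and for 4 of choroid plexus -4.05 to -3.74 in KA-SE and -4.26 to -3.19 in saline mice. For 4 neuronal microRNAs it was -0.52 to -0.29 in KA-SE and -3.19 to -0.68 in saline mice, and for 2 of oligodendrocytes -9.68 to -9.59 in KA-SE and -13.5 to -9.23 in saline mice. The groups overlapped in each list except the neuronal one, in which every KA-SE library was above every saline library. Singly, miR-124, miR-9 and miR-218 separated in this way over U6, as 19.2% of all microRNAs did, and miR-128a overlapped. In lists whose sums overlapped, miR-142-3p and miR-142-5p (leukocytes) and miR-143 and miR-145 (endothelium and vessel wall) also separated singly in this way. The log2 fold changes of the neuronal microRNAs were 1.42 for miR-124, 1.36 for miR-218, 1.07 for miR-9 and 0.40 for miR-128a. Without saline replicate 2 they were 0.50, 0.40, 0.30 and -0.17 in the same order. No marker on these lists passed the adjusted test in limma, and the part of other cell types in the members' values was not tested.

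As a pattern over the 6 libraries, the mean of the members was set against each of the 275 other tested microRNAs, relative to the global mean and with each microRNA centred. The closest were miR-370, miR-467a and miR-152, at root mean square distances of 0.0692, 0.0746 and 0.0835 cycles, where the median distance was 0.49 cycles. The family mean here is an average of 6 microRNAs set against single ones. The members themselves lay 0.0989 (miR-497) to 0.59 cycles (miR-322) from this mean, all farther than these 3 microRNAs. miR-15b (0.54) and miR-322 lay beyond the median distance. In saline replicate 2 the centred values of the members ran from -1.60 for miR-322 to 0.84 for miR-15b. The centred values of the family mean were 0.05, 0.12 and 0.15 in KA-SE mice, against -0.10, -0.32 and 0.10 in saline mice. Saline replicate 2 was thus the farthest from 0.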

How the data were processed

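MicroRNAs were measured in 3 KA-SE and 3 saline libraries, 1 per mouse, from 800 ng of total RNA on TaqMan mouse cards. The authors deposited raw Ct (40 where no amplification was called) and Ct relative to a reference, named RNU6B in the methods. The third deposited table holds the authors' fold changes per KA-SE library, a linear ratio, and was not used. Software and threshold settings of the instrument are not named in the labels or methods. No assay named RNU6B is on the card, so the level was taken as the Ct of MammU6 minus that of the microRNA. Columns were matched by name, with 0 left out.

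The test was limma 3.58.1 (R 4.3.3) on the 281 microRNAs that stayed under Ct 35 in every library, with Benjamini-Hochberg adjustment over all of them and a call at adjusted p under 0.05 and 1.5-fold. Gaps between members were compared by exact permutation (scipy 1.17.1). The family, whose members follow from their names, and the lists and tests were chosen with earlier results of these data known. Named were all members, assays of the miR-322 cluster and of related seeds, the 3 nearest patterns, the 2 highest and 2 lowest of the apoptosis list, and cell type markers. Alternatives were other references, detection limits, tests and libraries. A Ct has no read depth, so 3 mice per group limit the precision. Sequences and positions are RefSeq's (GRCm38.p6), and the deposited tables name no build.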

Additional observations from a re-analysis of the deposited data

How the results depend on the processing

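No family member was called under any of the alternatives run, and miR-195, miR-322 and miR-497 kept a positive log2 fold change in all of them (0.13 to 1.12, 0.19 to 2.16 and 0.15 to 1.42). Relative to the global mean, miR-15b was at -0.0165 and miR-16 at -0.20. With 1 library left out at a time, miR-15a ran from -0.0708 to 1.46 and miR-16 from -0.0212 to 0.81, both lowest without saline replicate 2. With saline replicate 2 left out, miR-15a and miR-16 were at -0.17 and -0.12 relative to the global mean and at -0.19 and -0.14 relative to the snoRNAs, a pair of choices added after seeing the data, where miR-15b reached an unadjusted p of 0.0385 (limma adjusted p = 0.349). The number of members whose groups did not overlap was 2 over U6, 1 over the snoRNAs, 1 in raw Ct (27 of all 281 higher) and 0 relative to the global mean. It was 2 to 5 with 1 library left out, the 5 without saline replicate 3, where 144 of all 281 (51.2%) were higher with no overlap. It was 3 without KA-SE replicate 1 (24.2% of all) and 2 without any other library (19.6% to 31.7% of all). In the authors' normalized table it was 2 (20.6% of all), and there miR-195 and miR-322 were apart while miR-15b overlapped. It was 1 with saline replicate 2 left out under the global mean (45 of 281) or the snoRNAs (42 of 281). With no detection limit 1 microRNA was called, miR-296-3p, which is no member and is named after its values were seen. With 1 library left out the U6 difference ran from -0.411 to 0.0805 cycles, at 0.0608 without KA-SE replicate 1.

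Of the 15 gaps, those from miR-16 to miR-195, miR-322 and miR-497 kept their sign in every alternative (-0.36 to -0.22, -1.35 to -0.33 and -0.66 to -0.22 cycles). So did those to miR-322 from miR-15a, miR-195 and miR-497 (-1.03 to -0.38, -1.04 to -0.0238 and -0.74 to -0.0402 cycles), whose groups overlapped with all 6 libraries. With 1 library left out, the gap from miR-15a ran from -0.57 to 0.89 cycles to miR-15b and from -0.34 to 0.21 to miR-497. That from miR-15b to miR-322 ran from -1.33 to 0.19, those from miR-16 from -0.87 to 0.0497 to miR-15a and from -0.52 to 0.0125 to miR-15b, those from miR-195 from -0.51 to 0.35 to miR-15a, from -0.22 to 0.37 to miR-15b and from -0.30 to 0.0163 to miR-497, and that from miR-497 to miR-15b from -0.23 to 0.67. In the authors' normalized table, the differences were -0.0277 for miR-15a to miR-15b, 0.13 for miR-16 to miR-15a, 0.10 for miR-16 to miR-15b and 0.35 for miR-195 to miR-15a. The causes were not tested. Same-numbered libraries of the groups correlated in their deviations at 0.05 to 0.24. Since the lowest was under the 0.1 required of every pair, the numbers were not taken to pair the mice, although 6 of 6 libraries correlated best with their own number. With the replicate number as a block, 33 microRNAs against 8 had an unadjusted p under 0.05, 0 members were called, and the log2 fold change of miR-322 was 1.46 (limma unadjusted p = 0.0685, adjusted p = 0.452).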

Other observations

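The authors' normalized table does not subtract the same amount from every member. The raw Ct minus the normalized value, less the Ct of U6 in the same library, was -1.13 to -1.03 cycles for miR-15a in 5 libraries and -0.04 cycles in saline replicate 2. For miR-15b it was 0.47 to 0.62 cycles over all 6 libraries, for miR-322 -0.09 to 0.15 and for miR-497 -0.21 to -0.04 cycles. For miR-16 it was 0.365, 0.381 and 0.408 cycles in KA-SE mice, against 0.069, 0.432 and 0.076 cycles in saline mice. For miR-195 it was 0.185, 0.229 and 0.221 cycles in KA-SE mice, against 0.069, 0.243 and 0.076 cycles in saline mice. Both were thus higher in every KA-SE library than in saline replicates 1 and 3. The same held for miR-322, and the reverse for miR-15b and miR-497. The part of these amounts in the gaps between members was not tested. The log2 fold change of miR-15a was 0.52 in that table and 0.90 from raw Ct over U6, while that of miR-16 was 0.65 in that table and 0.46 from raw Ct.

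The gathering of Ct values just under whole cycles in saline replicate 2 was noticed in the data. Of the 281 microRNAs tested, 131 had a fractional part of 0.9 or more there, and these were delayed against saline replicates 1 and 3 by a median of 2.35 cycles, against 2.19 cycles for the other 150. In the other libraries 43 to 66 of 281 Ct values had such a fractional part.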
